A study of Homo sapiens with 18 samples.

Results

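The plasminogen activator system was followed across all conditions through 5 genes chosen by symbol: the activators PLAU and PLAT, the receptor PLAUR and the inhibitors SERPINE2 and SERPINB2. Of these 5, 4 had a named probe, with 6 probes in all (1 each for PLAU, PLAT and SERPINE2 and 3 for PLAUR), and all 6 were detected, among 13505 genes with a detected probe. SERPINB2 was not analysed here because no probe was named for it in the probe annotation used. A probe counted as detected when its detection p-value, the chance of such a signal from background, was below 0.01 on at least 3 of 18 arrays. The 6 probes were detected on 3 of 3 arrays in every group.

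The cells were U2OS, a human osteosarcoma line, with a stably integrated vector that encodes either estrogen receptor alpha (ERα) or estrogen receptor beta (ERβ) and is induced by doxycycline, an antibiotic used to switch on such constructs. Each line was grown in 3 ways: with neither agent, with doxycycline alone, or with both doxycycline and E2, the estrogen estradiol. Each of the 6 groups held 3 single-colour Illumina arrays, 18 in all. All groups carried a receptor vector, so no group of U2OS cells without a vector enters any comparison, and no group received E2 without doxycycline. Doses and treatment times, and whether a line is 1 clone, are not given in the sources used here. The labels call the arrays of a group replicates without saying that they came from separate cultures, so the spread that p-values measure here may be only technical. The ERβ line was not free of its receptor before induction: the ESR2 probe ILMN_2390457, which reads ERβ mRNA, averaged 11.26 ± 0.14 (SD, n = 3) on the log2 scale without doxycycline and 15.94 ± 0.14 (SD, n = 3) with it. The ESR1 probe lay near background in all 6 groups, so induction of ERα could not be checked on these arrays.

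Plasminogen is an inactive precursor that circulates in blood and bathes tissues; PLAU (urokinase) and PLAT (tissue-type activator) cut it into plasmin, a protease that dissolves fibrin and degrades extracellular matrix. PLAUR, the urokinase receptor, is a lipid-anchored surface protein that holds PLAU at the cell edge, where activation is concentrated. SERPINE2 (protease nexin 1) and SERPINB2 are serpins, suicide inhibitors that trap the proteases covalently, and SERPINE2 also inhibits thrombin. In bone and in osteosarcoma cells this system is known for its part in matrix turnover and in migration and invasion.

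The 250 bases upstream of an annotated start are printed for PLAU, PLAUR and SERPINE2, the detected genes with a window in the set used. PLAT had none in that set. The sequences are from RefSeq on GRCh38.p14, 5′ to 3′ on the strand of the gene, with motif matches in capitals. PLAU lies at chr10:73908832-73917494 and its window at chr10:73910882-73911131 (plus strand), PLAUR at chr19:43646095-43670169 with its window at chr19:43670170-43670419 (minus strand), and SERPINE2 at chr2:223975045-224039286 with its window at chr2:224031479-224031728 (minus strand).
PLAU: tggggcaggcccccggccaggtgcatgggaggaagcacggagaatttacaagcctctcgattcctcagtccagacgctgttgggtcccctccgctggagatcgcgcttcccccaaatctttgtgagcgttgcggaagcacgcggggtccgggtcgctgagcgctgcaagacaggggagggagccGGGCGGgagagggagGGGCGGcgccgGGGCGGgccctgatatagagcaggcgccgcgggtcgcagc
PLAUR: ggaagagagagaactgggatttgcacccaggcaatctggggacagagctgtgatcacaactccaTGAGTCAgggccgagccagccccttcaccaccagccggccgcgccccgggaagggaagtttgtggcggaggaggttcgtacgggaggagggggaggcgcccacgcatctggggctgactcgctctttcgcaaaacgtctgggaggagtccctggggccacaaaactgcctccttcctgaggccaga
SERPINE2: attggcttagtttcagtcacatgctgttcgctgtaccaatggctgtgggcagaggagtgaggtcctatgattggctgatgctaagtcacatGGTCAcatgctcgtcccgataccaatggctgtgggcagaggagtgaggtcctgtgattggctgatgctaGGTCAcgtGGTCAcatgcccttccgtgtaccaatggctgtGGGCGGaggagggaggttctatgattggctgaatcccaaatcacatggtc
Both strands were searched for the AP-1 site TGANTCA, the spaced estrogen response element (GGTCA and TGACC with any 3 bases between), its single arm GGTCA (contained in the spaced element) and the Sp1 site GGGCGG. The PLAU window held 3 GGGCGG matches, beginning 66, 51 and 40 bases before the start, and neither GGTCA nor TGANTCA. The PLAUR window held 1 TGANTCA match, 186 bases before the start. The SERPINE2 window held 3 GGTCA matches, at 159, 90 and 82 bases before the start, and 1 GGGCGG match. An alternative PLAU start, at the end of the window chr10:73910360-73910609, had none of the 4 motifs, and a further SERPINE2 window, chr2:224038641-224038890, had 1 GGTCA and 2 GGGCGG matches, all on the opposite strand. Among 35116 RefSeq windows of this length, 6.57% held TGANTCA, 32.6% GGTCA, 42.6% GGGCGG and 0.0399% the spaced element, which was in none of the 5 windows of these genes. A match is a description of the letters and does not show binding.

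PLAU fell with E2 in both lines, with the largest fitted E2 change of the 4 genes in each. On the log2 scale, where 1 unit is a doubling of the normalized signal, the ERα line without doxycycline read 10.32, 9.97 and 9.83 on its 3 arrays, with doxycycline 10.29, 9.96 and 10.18, and after doxycycline plus E2 7.92, 7.56 and 7.39. The ERβ line read 11.36, 11.09 and 11.20 without doxycycline, 11.70, 12.20 and 11.09 with it, and 10.05, 10.21 and 9.86 once E2 was added. In both lines every array with E2 lay below every array without E2, while doxycycline alone left overlapping groups. The lowest 3 of the 18 values were the ERα arrays with E2, which still lay above the detection limit, a log2 level of 6.08 to 6.52 depending on the array. The raw PLAU intensity averaged 1322 in the ERα line with doxycycline and 397 with E2 added, and 3634 and 1225 in the ERβ line. In bulk RNA of this kind, fewer cells with a transcript and less transcript per cell cannot be told apart.

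**Figure D1:**
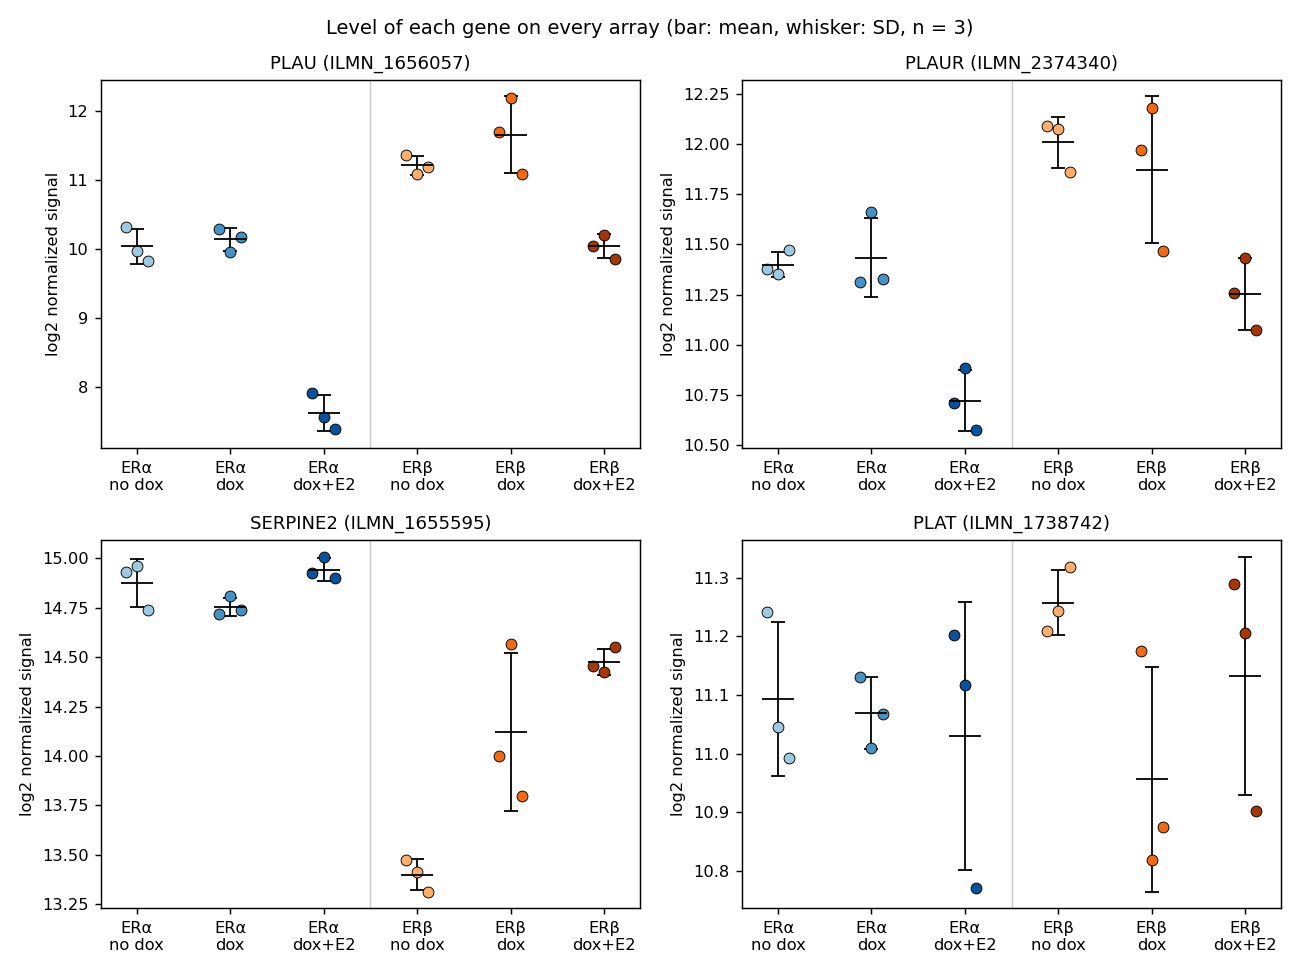
Log2 normalized signal (y axis, a separate scale per panel) of PLAU, PLAUR, SERPINE2 and PLAT in the 6 groups, with 1 point per array, a horizontal bar at the group mean and a whisker of 1 SD (n = 3). PLAU and PLAUR sit lowest with E2 within each line, SERPINE2 is lowest in the ERβ line without doxycycline, and all 18 PLAT values lie between 10.77 and 11.32.

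When E2 was added to doxycycline, PLAU fell by 2.52 ± 0.22 (SE) on the log2 scale in the ERα line, to 17.5% of its level (limma, Benjamini-Hochberg adjusted p = 6.75e-07). In the ERβ line it fell by 1.62 ± 0.22, to 32.5% (adjusted p = 0.000134). The ERα loss was smaller without background correction, which compresses dim signals, at -1.77, and passed the test there too. Against cells with neither agent, doxycycline plus E2 left PLAU 5.34-fold lower in the ERα line (adjusted p = 1.01e-06; a log2 change of -2.42, and of -1.68 without background correction) and 2.25-fold lower in the ERβ line (adjusted p = 0.000662). Doxycycline alone gave a log2 change of 0.10 in the ERα line (95% confidence interval -0.38 to 0.58, adjusted p = 1) and of 0.45 in the ERβ line (-0.03 to 0.92, adjusted p = 0.188). That ERβ value rested on an uneven group: it was 0.73 (adjusted p = 0.0165) without array 6, the lowest array with doxycycline, and 0.18 (adjusted p = 0.632) without array 5, the highest. With all arrays kept, it passed on the authors' processed values (0.43, adjusted p = 0.0359) and with estimated array weights (0.48, adjusted p = 0.0375).

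The E2 response of PLAU, tested directly between lines, differed by 0.90 ± 0.32 (SE, ERβ minus ERα, 95% interval 0.22 to 1.57), which did not pass after adjustment over all genes (limma, adjusted p = 0.105). The difference was 0.30 without background correction and 1.16 (adjusted p = 0.0145) without array 5 of the ERβ doxycycline group. It also passed with estimated array weights (adjusted p = 0.0174).

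PLAU also differed between the lines themselves. Its order from high to low was ERβ with doxycycline, ERβ without, ERα with doxycycline, ERβ with doxycycline plus E2, ERα without, and ERα with doxycycline plus E2. Neighbours in this order overlapped except at 2 gaps, below the ERβ groups without E2 (1.07) and above the ERα group with E2 (2.42). Without doxycycline PLAU was 2.25-fold higher in the ERβ line (limma, adjusted p = 0.000457), and with doxycycline plus E2 5.34-fold higher (adjusted p = 4.37e-07), a log2 difference of 2.42 that was 1.68 without background correction. With E2 the ERβ cells came down to a mean of 10.04 ± 0.17 (SD, n = 3), beside 10.04 ± 0.25 (SD, n = 3) in ERα cells that had received neither agent.

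PLAT, the other activator, passed the test in 0 of 10 comparisons, and 1 of them, doxycycline in the ERβ line, had an unadjusted p below 0.05. The ERα line read 11.24, 11.05 and 10.99 without doxycycline, 11.13, 11.01 and 11.07 when induced, and 11.20, 11.12 and 10.77 after E2. The ERβ line read 11.21, 11.24 and 11.32, then 11.18, 10.82 and 10.87, then 11.29, 11.21 and 10.90 in the same order of treatments. The 18 arrays spanned 10.77 to 11.32, and neighbouring groups in the order of means overlapped throughout. Adding E2 gave a log2 change of -0.04 in the ERα line (95% interval -0.32 to 0.24, adjusted p = 0.893) and of 0.18 in the ERβ line (-0.10 to 0.45, adjusted p = 0.495), so a loss of the size seen for PLAU lay outside both intervals. In the ERβ line doxycycline alone gave -0.30 ± 0.13 (SE, adjusted p = 0.123), with no overlap between the groups. That value passed on the authors' processed values (adjusted p = 0.0158).

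PLAUR, which holds PLAU at the cell surface, also fell with E2 in both lines. Its brightest probe, ILMN_2374340, read 11.38, 11.35 and 11.47 in the ERα line without doxycycline, 11.31, 11.66 and 11.33 when induced, and 10.71, 10.88 and 10.57 after E2. The ERβ line read 12.09, 12.07 and 11.86, then 11.97, 12.18 and 11.47, then 11.26, 11.43 and 11.07. As for PLAU, all 3 arrays with E2 lay below all arrays without E2 in each line, although the lowest ERβ doxycycline array, array 6, came within a small margin of the E2 group. E2 lowered PLAUR by a log2 change of -0.71 ± 0.16 (SE) in the ERα line, to 61% of its level (limma, adjusted p = 0.00413), and of -0.62 ± 0.16 in the ERβ line, to 65.1% (adjusted p = 0.016). The difference between the lines was 0.09 (95% interval -0.39 to 0.58, adjusted p = 0.91). Doxycycline alone gave 0.03 (-0.31 to 0.38) in the ERα line and -0.14 (-0.48 to 0.20) in the ERβ line.

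The 3 PLAUR probes gave a check within the gene. ILMN_2408543, annotated to another transcript than the other two probes, averaged 10.01 with doxycycline and 9.20 with E2 in the ERα line, and 10.39 and 9.73 in the ERβ line. It fell by 0.81 ± 0.13 (SE) in the ERα line (limma, adjusted p = 0.000307 over all kept probes) and by 0.66 ± 0.13 in the ERβ line (adjusted p = 0.00284). The dimmest, ILMN_1691508, averaged 9.13 and 8.73 in the ERα line and 9.31 and 9.09 in the ERβ line. Its changes were -0.39 (95% interval -0.88 to 0.10, adjusted p = 0.313) and -0.22 (-0.70 to 0.27, adjusted p = 0.736), the same direction without passing. The PLAUR call for E2 in the ERα line was lost without replicate 1 (adjusted p = 0.0907). The ERβ call was the less secure: it was lost with the mean of the 3 probes (adjusted p = 0.0508), with only the 2 groups compared in the fit (adjusted p = 0.13), without replicate 1 (0.282) or 2 (0.0897), and without array 4 (0.067), array 5 (0.0749) or array 9 (0.0795) of that line.

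**Figure D2:**
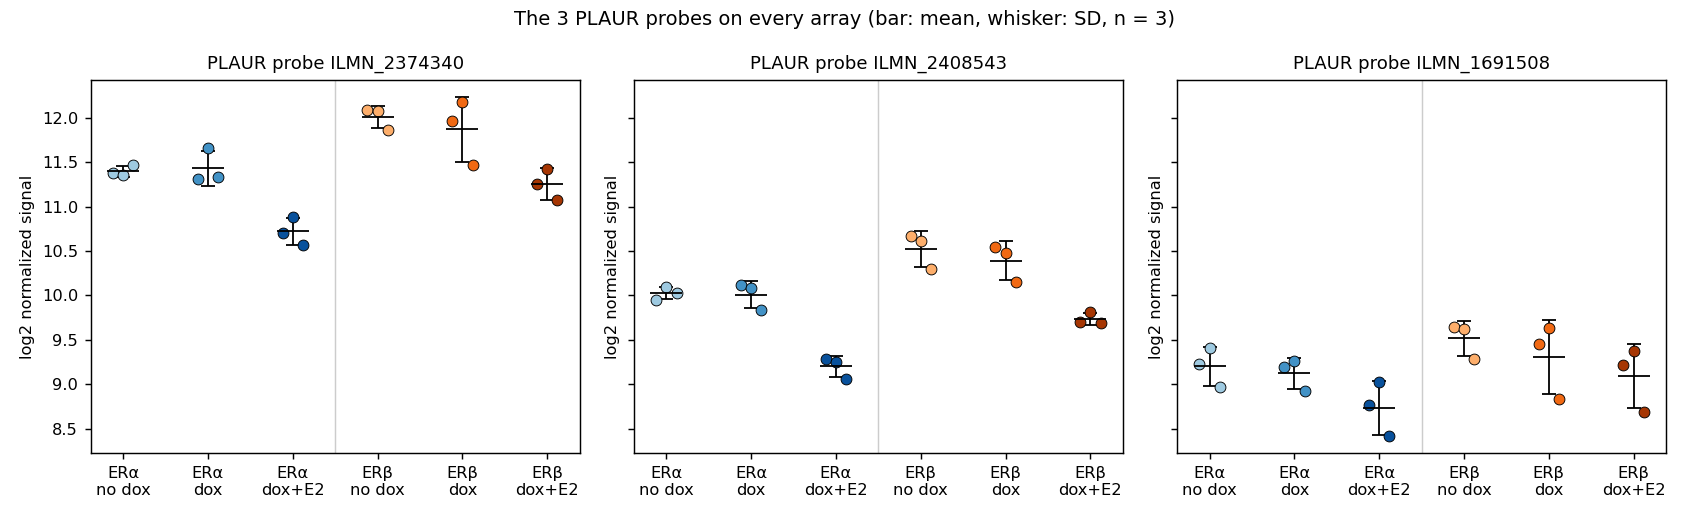
Log2 normalized signal (shared y axis) of the 3 PLAUR probes in the 6 groups, with 1 point per array, a bar at the mean and a whisker of 1 SD (n = 3). ILMN_2374340 and ILMN_2408543 step down with E2 in both lines, and ILMN_1691508 steps down less, with overlapping groups in both lines; heights are not comparable between probes.

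From high to low, PLAUR (ILMN_2374340) ran ERβ without doxycycline, ERβ with doxycycline, ERα with doxycycline, ERα without, ERβ with both agents and ERα with both agents, and only the last gap (0.53) separated neighbours without overlap. PLAUR was higher in the ERβ line at both ends of the design, 1.53-fold without doxycycline (limma, adjusted p = 0.00493) and 1.45-fold with doxycycline plus E2 (adjusted p = 0.0125). Both calls were lost without replicate 1, at adjusted p = 0.111 and 0.141, and the second also without array 9 of the ERα line (0.0533) or array 8 of the ERβ line (0.0588). Against untreated cells, doxycycline plus E2 lowered PLAUR 1.6-fold in the ERα line (adjusted p = 0.00539) and 1.69-fold in the ERβ line (adjusted p = 0.00149), again not without replicate 1 (0.115 and 0.068). Across the 18 arrays PLAU and PLAUR correlated at r = 0.915 (Pearson, a description, since the arrays share groups, lines and normalization).

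SERPINE2, the inhibitor, rose with doxycycline in the ERβ line, and its E2 changes did not pass. The ERα line read 14.93, 14.96 and 14.74 without doxycycline, 14.72, 14.81 and 14.74 when induced, and 14.92, 15.01 and 14.90 after E2. The ERβ line read 13.47, 13.41 and 13.31 without doxycycline, 14.00, 14.57 and 13.80 with it, and 14.46, 14.42 and 14.55 with E2. The uninduced ERβ arrays were the lowest 3 of 18, and every ERβ array lay below every ERα array. In the order of group means, neighbours were separated without overlap at 2 gaps, between the lowest ERα and the highest ERβ group (0.28) and above the uninduced ERβ group (0.72). Doxycycline raised SERPINE2 by 0.72 ± 0.14 (SE) on the log2 scale in the ERβ line, 1.65-fold (limma, adjusted p = 0.00197), and gave -0.12 (95% interval -0.43 to 0.18, adjusted p = 1) in the ERα line. The 2 responses differed by 0.84 ± 0.20 (adjusted p = 0.0136). The doxycycline rise in the ERβ line missed the threshold when only the groups compared were fitted (adjusted p = 0.0668) or replicate 1 was left out (0.059), and the difference between lines did so in the first case (0.0569) and without replicate 1 (0.232) or 2 (0.0769).

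Adding E2 left SERPINE2 undecided in both lines. The log2 change was 0.19 (95% interval -0.11 to 0.49, adjusted p = 0.418) in the ERα line, where the groups did not overlap, and 0.36 (0.05 to 0.66, adjusted p = 0.128) in the ERβ line, where they did. The ERβ value rested on an uneven doxycycline group. Without array 5, its highest, the change was 0.58 (limma, adjusted p = 0.00067), and without array 6, its lowest, 0.19 (adjusted p = 0.436). With all arrays kept, the ERβ change passed on the authors' processed values (adjusted p = 0.0242) and with array weights (0.00142). Doxycycline and E2 together raised SERPINE2 by 1.08 ± 0.14 in the ERβ line, 2.11-fold (adjusted p = 2.3e-05), and gave 0.07 in the ERα line (adjusted p = 0.795). The ERβ line without doxycycline had 2.79-fold less SERPINE2 than the ERα line (adjusted p = 6.01e-07), and with doxycycline plus E2 1.38-fold less (adjusted p = 0.0135). The last of these missed the threshold when arrays were aligned by a median shift (adjusted p = 0.0886) and without replicate 1 (0.145). Across the 18 arrays SERPINE2 ran opposite to PLAU (r = -0.639) and PLAUR (r = -0.68). These r values take in the difference between lines, since uninduced ERβ cells had less SERPINE2 but more PLAU and PLAUR. Within the ERβ doxycycline group PLAU, PLAUR and SERPINE2 were each highest on array 5 and lowest on array 6.

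The counts of genes called per comparison, at an adjusted p below 0.05 in limma, are read against the share of all 13505 genes called. E2 lowered 2 of 4 genes, PLAU and PLAUR, in the ERα line, where 11.1% of all genes fell and 22% changed in either direction. It lowered the same 2 in the ERβ line, where 6.84% fell and 13.8% changed. The E2 groups did not overlap for 3 of 4 genes in the ERα line and 2 of 4 in the ERβ line, against 38.4% and 27.2% of all genes. Doxycycline alone called 0 of 4 in the ERα line (0 of 4 also at an unadjusted p below 0.05, as 5.22% of all genes were), where 0.0148% of all genes were called. In the ERβ line it raised 1 of 4, SERPINE2, where 9.9% of all genes rose and 20.6% were called, and the groups did not overlap for 2 of 4, SERPINE2 and PLAT, against 34% of all genes. Doxycycline plus E2 against neither agent called 2 of 4 in the ERα line (25.4% of all genes) and 3 of 4 in the ERβ line (37.8%). The E2 response differed between lines for 0 of 4 genes (8.69% of all genes; at an unadjusted p below 0.05, 1 of 4, PLAU, and 19.6% of all genes) and the doxycycline response for 1 of 4 (9.66%). The lines differed in 3 of 4 genes without doxycycline and 3 of 4 with doxycycline plus E2, where about as many genes overall differed as not (50.5% and 46.9%), so these counts say little about the 4 genes. The median log2 change of the 4 genes with E2 was -0.376 (ERα line) and -0.221 (ERβ line), against -0.0332 and -0.0336 over all genes.

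**Figure D3:**
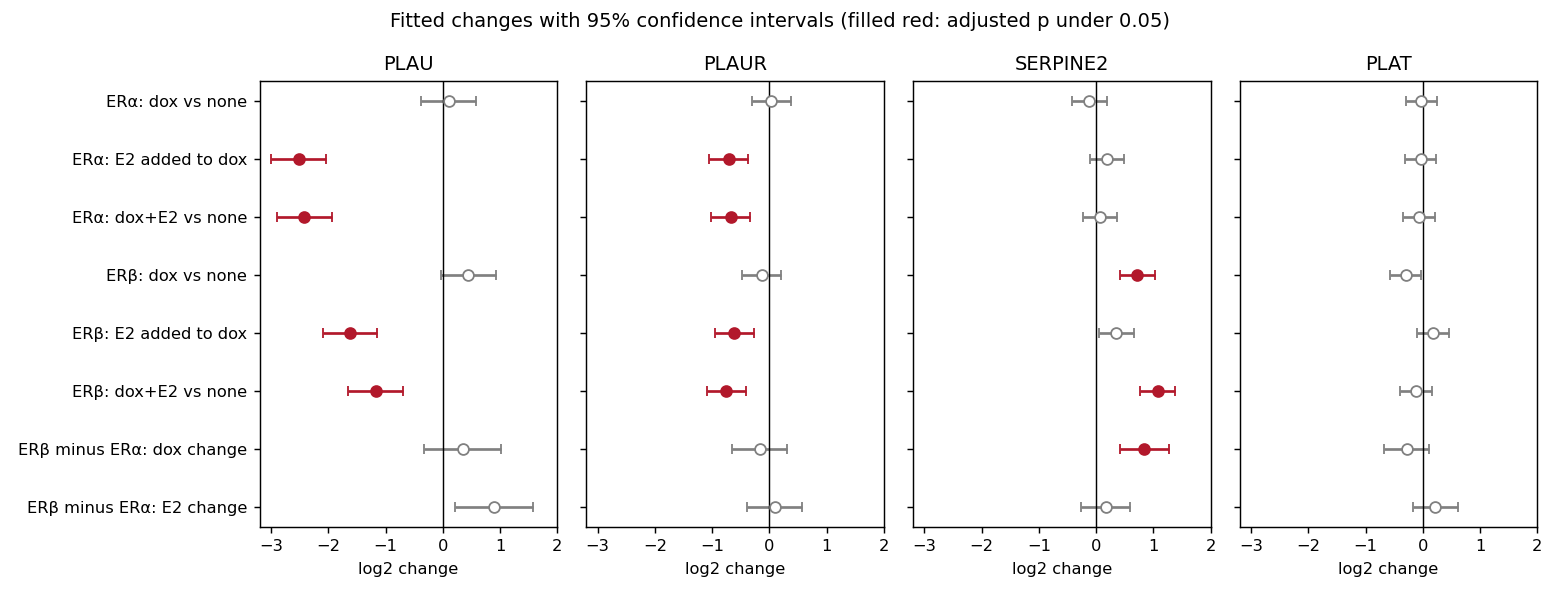
Fitted log2 changes (x axis) with 95% confidence intervals for PLAU, PLAUR, SERPINE2 and PLAT in 6 comparisons within a line and 2 differences between lines, filled red where the adjusted p was below 0.05. PLAU and PLAUR lie left of 0 wherever E2 was added, SERPINE2 lies right of 0 where doxycycline was added to ERβ cells, and 0 PLAT points are filled.

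The wider plasminogen system was read from a list of 50 other activators, inhibitors, receptors and cofactors, of which 34 were detected. E2 raised 2 of these 34 and lowered 3 in the ERα line (median log2 change -0.173, against -0.0332 for all genes, 22% of which were called). In the ERβ line it raised 3 and lowered 0 (median 0.00514, against -0.0336, with 13.8% of all genes called). F12, coagulation factor XII, which can start a contact pathway that feeds plasminogen activation, rose 2.42-fold in the ERα line (limma, adjusted p = 1.04e-07) and 2.01-fold in the ERβ line (adjusted p = 3.46e-06). SDC1, a cell-surface heparan sulfate proteoglycan, rose 3.37-fold in the ERα line (adjusted p = 2.23e-07) and by a log2 change of 0.53 in the ERβ line (adjusted p = 0.0198). THBS1, thrombospondin 1, a matrix protein that binds plasminogen and its activators, fell by 1.06 ± 0.17 (SE) on the log2 scale in the ERα line (adjusted p = 0.000247), and its ERβ change was -0.50 (adjusted p = 0.066). TMPRSS2, a membrane serine protease, was at least 1.81-fold lower with E2 in the ERα line (adjusted p = 3.49e-06), a bound because it was not well above background there.

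With doxycycline alone, 0 of the 34 passed in the ERα line, where 0.0148% of all genes did, and 5 rose and 1 fell in the ERβ line, where 20.6% of all genes were called. KLK4, a secreted protease able to activate PLAU, rose 2.59-fold (limma, adjusted p = 9.71e-06), and SORL1, an endocytic receptor that takes up PLAU, rose 2.57-fold (adjusted p = 9.76e-06). STC1, a secreted glycoprotein hormone, rose 2.44-fold (adjusted p = 3.51e-05). STC1 fell by 0.64 with E2 in the ERα line (adjusted p = 0.00959). In the ERβ line KLK2, another kallikrein protease, was at least 1.25-fold higher with doxycycline plus E2 than with neither (adjusted p = 0.000619), a low signal that in this line was above background on the E2 arrays only.

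Other serpins changed in both directions with doxycycline in the ERβ line. Of 13 detected among 31 listed (3 of them also in the wider list), doxycycline raised 3 and lowered 5 in the ERβ line (median -0.193, against -0.0363 for all genes, 20.6% of which were called) and changed 0 in the ERα line (0.0148% of all genes). E2 raised 2 and lowered 1 in the ERα line (22% of all genes called) and raised 2 in the ERβ line (13.8%). SERPINA1, the inhibitor of neutrophil elastase, rose 9.75-fold with doxycycline in the ERβ line (limma, adjusted p = 1.69e-09) and 2.58-fold with E2 in the ERα line (adjusted p = 1.93e-05). SERPINA3, an antichymotrypsin, rose 4.51-fold with doxycycline in the ERβ line (adjusted p = 0.000818). SERPINF1, an anti-angiogenic serpin that does not inhibit proteases, fell by 0.97 ± 0.16 (SE) there (adjusted p = 0.000572). SERPINB3 and SERPINB4, a nearly identical pair whose probes may not tell them apart, were at least 1.67-fold and 2.02-fold lower with doxycycline in the ERβ line (adjusted p = 0.000224 and 9.71e-09), bounds because they were above background in uninduced ERβ cells alone. SERPINA6, which carries glucocorticoids in blood, was at least 1.41-fold higher with E2 in the ERα line (adjusted p = 1.25e-05). In the ERβ line SERPINA6 was at least 1.23-fold higher with doxycycline than with neither agent (limma, adjusted p = 7.36e-05). With both agents it was at least 2.4-fold higher than with neither (adjusted p = 2.23e-07). E2 added to doxycycline raised it there by a log2 change of 0.97 (adjusted p = 0.00735).

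Transcription factors known to act on the PLAU promoter and its upstream enhancer (the AP-1, ETS, NF-kB and Sp1 families, 13 genes, all detected) showed 1 rise and 2 falls with E2 in the ERα line (median log2 change -0.114, against -0.0332 for all genes, 22% of which were called). In the ERβ line there were 1 rise and 4 falls (median -0.146, against -0.0336, with 13.8% called). The rises were FOSL2 in the ERα line (0.50, limma, adjusted p = 0.0381) and FOS in the ERβ line (0.53, adjusted p = 0.015). Besides ETS1, the falls in the ERβ line were FOSL1 (-0.60, limma, adjusted p = 0.0339), NFKB1 (-0.42, adjusted p = 0.0324) and JUN (-0.31, adjusted p = 0.0412). AP-1 members thus went in both directions with E2 in that line. With E2, ETS1 fell by 0.92 ± 0.10 (SE) in the ERα line (limma, adjusted p = 7.09e-06) and by 0.49 in the ERβ line (adjusted p = 0.0039). ETS1 rose by 0.46 with doxycycline in the ERβ line (adjusted p = 0.00441). Against neither agent, both agents gave ETS1 a change of -0.75 in the ERα line (adjusted p = 5e-05) and -0.03 in the ERβ line (adjusted p = 0.874). ETS2 fell with E2 by 1.18 ± 0.15 in the ERα line (adjusted p = 3.63e-05), and its ERβ change was -0.29 (adjusted p = 0.288). Whether these factors have a part in the PLAU change was not tested.

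**Figure D4:**
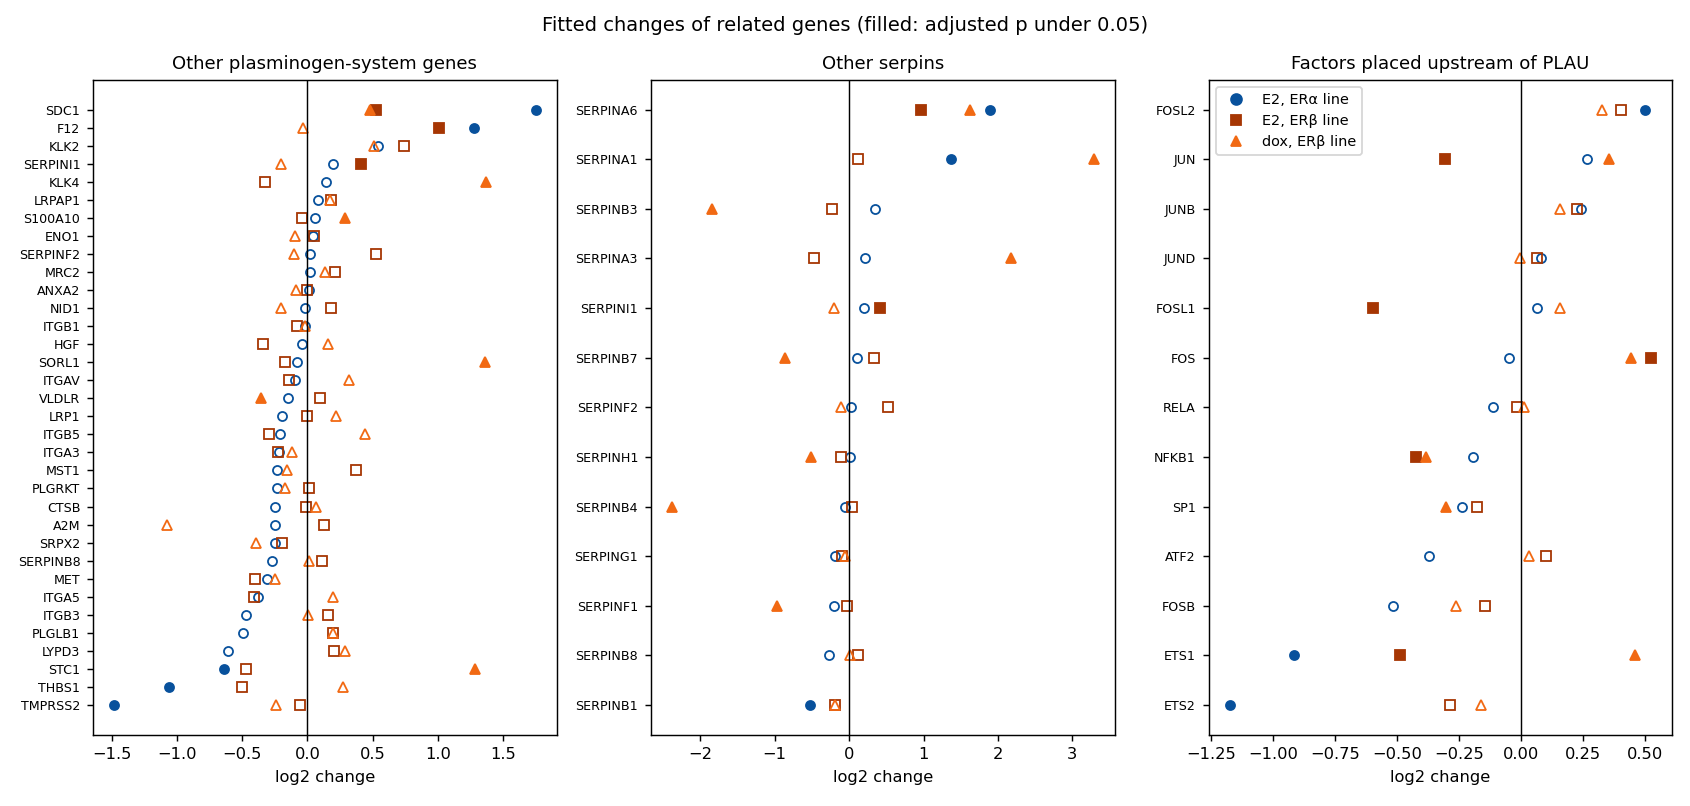
Fitted log2 changes (x axis, a separate scale per panel) of the detected genes of the wider plasminogen list, the other serpins and the factors placed upstream of PLAU, for E2 in the ERα line (blue circles), E2 in the ERβ line (brown squares) and doxycycline in the ERβ line (orange triangles), filled where the adjusted p was below 0.05. Most symbols of the wider list are open, SERPINA1 reaches the highest value with doxycycline, and ETS1 and ETS2 lie lowest among the factors with E2 in the ERα line; values of genes below background in a group, such as TMPRSS2, SERPINB4 and SERPINA6, depend on the offset added to the signal.

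By Pearson correlation over the 18 arrays, the 3 genes most like PLAU were ID3 (r = 0.962), MFSD6 (0.951) and ETS1 (0.944), and those most like PLAUR were ID3 (0.956), RPUSD3 (0.952) and NNMT (0.948). ID3 averaged 12.10, 12.18 and 11.32 in the ERα line (neither agent, doxycycline, both agents) and 12.82, 12.78 and 12.02 in the ERβ line, so it was lowest with E2 in both. The genes most like SERPINE2 were SNCAIP (r = 0.978), SMIM14 (0.975) and RNF146 (0.967). SNCAIP averaged 8.62, 8.72 and 8.92 in the ERα line against 5.92, 7.24 and 7.73 in the ERβ line. Its mean of 5.92, in ERβ cells without doxycycline, lay below the detection limit (6.08 to 6.52) and is no measured level. That mean, and the r it enters, depend on the offset added to the signal. PLAT had no comparably close partner: its best were HOTTIP (0.729), RTN4IP1 (0.726) and GTF2A1 (0.713). Its values spanned only 10.77 to 11.32, so its lower r values cannot be set against those of genes with larger group differences. These correlations describe 18 arrays that share lines, treatments and normalization.

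Each array detected 19834 to 22485 probes (40.6% to 46.1% of them) at a median raw intensity of 217 to 251, and within-group correlations across genes were 0.984 to 0.994. The number of arrays, 3 a group, limits the precision, with a single spread per gene estimated over all 18. That shared spread understates the error for the ERβ doxycycline group, whose array 5 was the highest and array 6 the lowest for PLAU, PLAUR and SERPINE2. Of 10 mesenchymal and osteosarcoma markers 9 were detected on all 18 arrays, and COL1A2 was not detected. Of 5 blood markers with a named probe 0 were detected on all arrays and CD14 on some, while EPCAM, KRT8 and KRT18 of the epithelial list and PECAM1 and VWF of the endothelial list were detected on all 18. Their part in the results was not tested.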

How the data were processed

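Total RNA of 18 samples in 6 groups of 3 was labelled with biotin from 750 ng and hybridized to Illumina arrays, per the labels' protocols. The authors deposited a non-normalized table of probe intensity with a detection p-value per probe and array, per the file headers. A second deposited table holds the authors' processed intensity, and lumi is the tool given by the submitters' processing notes. The steps, scale and centring of those values are not given in the sources used here, and they served as an alternative only.

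Columns 1 to 3 of each line in the non-normalized table carry their sample's number. Columns 4 to 9 are known by group only, and for the fits that need replicate numbers each was matched by rank correlation to a numbered processed column of the same group (0.973 or more for the match, 0.944 or less for any other). Arrays are named by these column numbers, and 0 columns of other samples were used.

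The intensities were corrected for background (normexp, from the detection p-values), raised by an offset of 16, quantile-normalized and put on a log2 scale (neqc in limma 3.58.1, R 4.3.3). The offset understates the change of dim probes. Of 48804 probe lines 1 repeat was dropped, leaving 48803 probes, 27578 with 1 gene symbol. A probe was kept if detected (p below 0.01) on 3 or more arrays (24226 were), and each gene was read from its kept probe with the highest mean. The 6 group means were fitted to all 18 arrays with lmFit and eBayes (12 residual and 2.66 prior degrees of freedom), with 2-sided p-values adjusted by Benjamini-Hochberg over 13505 genes, threshold 0.05. The scripts were tested on simulated data. A gene below background on every array of a group has only a bound there, set against the lowest detected signal of those arrays.

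All members and each of their detected probes are named. Members of the gene lists are named where called with a log2 change of at least 1 in a comparison within a line. At under 1, ETS1 is named as a neighbour of PLAU, and FOS, FOSL2, FOSL1, NFKB1 and JUN as further factors called with E2. Neighbours are the 3 genes with the highest correlation. The members and lists were chosen with earlier results of these data known, so the lists' counts are not independent evidence. Alternatives were other background corrections, normalizations, filters, probe rules and fits, and leaving out arrays or replicates. Promoter windows are from RefSeq, and no sequence was printed for PLAT.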

Additional observations from a re-analysis of the deposited data

Results flagged for a closer look

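The SERPINE2 response to doxycycline differed between the lines. The change in the ERβ line exceeded that in the ERα line by 0.84 ± 0.20 (SE) on the log2 scale in the direct test of the difference (limma, adjusted p = 0.0136), with 0.72 in the ERβ line and -0.12 in the ERα line. All 3 ERβ arrays with doxycycline lay above all 3 without it, and the ERα groups overlapped. The difference missed the threshold when the arrays compared were fitted alone (adjusted p = 0.0569) and without replicate 1 (0.232) or 2 (0.0769).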

How the results depend on the processing

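The PLAU calls for E2 in both lines, for doxycycline plus E2 in both lines and for both comparisons between lines held under each alternative run, as did the SERPINE2 calls for doxycycline plus E2 in the ERβ line and between uninduced lines. PLAU with E2 ranged from -2.67 to -1.77 in the ERα line and from -1.90 to -1.35 in the ERβ line. Of 848 values under alternatives, 786 kept direction and call. The count of the 4 genes called for E2 in the ERβ line, 2, was 1 with probes averaged per gene and 1 with the arrays compared fitted alone, and it was 3, with SERPINE2 added, on the authors' processed values, with or without a replicate block, and with array weights. For doxycycline in the ERβ line, 1, it was 3 on the authors' processed values (PLAU and PLAT added), 0 with the arrays compared alone, 2 with array weights (PLAU added), and, with PLAT added, 2 with a replicate block (adjusted p = 0.0459) and 2 with the authors' values and a replicate block (0.0317). For the difference of E2 responses, 0, it was 1 with a replicate block (PLAU, adjusted p = 0.0467) and 1 with array weights, and for the difference of doxycycline responses, 1, it was 0 with the arrays compared alone. With an array or replicate left out these counts were 1 to 2 for E2 in each line and for doxycycline plus E2 in the ERα line, 0 to 2 for doxycycline in the ERβ line, 0 to 1 for each difference, and 1 to 3 between lines with doxycycline plus E2. The cause was not tested, beyond the fewer arrays in such fits.

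Changes that turned sign were all uncalled. PLAT in the ERα line turned to 0.0127 with E2 under array weights, and under a median shift to 0.0324 with doxycycline and 0.000968 with doxycycline plus E2. PLAUR with doxycycline in the ERα line turned to -0.0208 with the mean of probes. With an array or replicate left out, PLAT ranged from -0.126 to 0.0910 (E2, ERα), -0.0748 to 0.0508 (doxycycline, ERα), -0.150 to 0.0671 and -0.228 to 0.0205 (both agents, ERα and ERβ) and -0.0277 to 0.217 (lines with both agents). PLAU ranged from -0.0235 to 0.241 (doxycycline, ERα) and -0.0433 to 0.746 (difference of doxycycline responses). PLAUR ranged from -0.103 to 0.121 and -0.291 to 0.0648 (doxycycline, ERα and ERβ), -0.109 to 0.248 (difference of E2 responses) and -0.326 to 0.0301 (difference of doxycycline responses), and SERPINE2 from -0.00282 to 0.110 (both agents, ERα) and -0.0468 to 0.421 (difference of E2 responses).

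Same-numbered arrays deviated from their group means together at a median correlation of 0.378, the lowest of 45 pairs at 0.0608. Of 18 arrays, 16 correlated best with their own number, and differently numbered arrays of different groups had a median of -0.197. On the authors' processed values the median for same-numbered arrays was -0.187, and 0 of 18 arrays correlated best with their own number. Not every pair passed 0.1, so the numbers were not taken to pair the arrays, and the replicate block is an alternative only.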
